A study of Mus musculus with 4 samples.

Results

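The TALE homeobox genes analysed were 9 genes, *Meis1*, *Meis2*, *Meis3*, *Pbx2*, *Pbx3*, *Pknox1*, *Pknox2*, *Tgif1* and *Tgif2*, among 19645 features whose expression was estimated in undifferentiated mouse embryonic stem cells (ESCs). They were chosen by family membership and picked out by gene symbol, with earlier results of the KO against WT comparison already known, *Meis2* in particular, so their differences between the genotypes are given as a description and no test is made over the family. Each symbol was found once. *Pbx2* was found only in a feature that merges it with its neighbour *Ager*. Total RNA depleted of ribosomal RNA was sequenced as 2 libraries of WT ESCs and 2 libraries of *Bmal1* KO ESCs, all grown on gelatin in serum medium with LIF, the cytokine that holds ESCs undifferentiated. The KO cells carry a short CRISPR-Cas9 deletion at the start codon of *Arntl*, the gene for the circadian factor BMAL1, and are 1 selected clone. An effect of the deletion and a difference that this clone already carried therefore cannot be told apart. Values are FPKM, fragments scaled by transcript length and by the mapped fragments of the library, so that levels of different genes can be set side by side. The read depth cannot be recovered from FPKM and is unknown.

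TALE proteins are homeodomain transcription factors with a 3-residue extension of the loop between the first helices of the homeodomain, from which they take their name. MEIS and PKNOX proteins bind PBX proteins through an N-terminal domain, and this contact helps to hold PBX in the nucleus. The resulting dimers, often together with a HOX protein, bind regulatory DNA of developmental genes. TGIF proteins act differently, as repressors that recruit histone deacetylases, oppose SMAD-dependent transcription downstream of TGF-β and Nodal, and bind RXR, the partner of retinoic acid receptors. *Meis* genes are known as retinoic acid-inducible genes with roles in limb, eye, heart and neural development.

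The coding sequence of the extended loop shows what the 9 members share and how far they differ. The stretches shown, from GENCODE M21 transcripts on GRCm38, run 5′ to 3′ from the loop to the last helix of the homeodomain. Capitals mark the codons of the extended loop at the start and those of the tryptophan, phenylalanine, variable residue and asparagine of the DNA-contacting helix at the end.
Meis1: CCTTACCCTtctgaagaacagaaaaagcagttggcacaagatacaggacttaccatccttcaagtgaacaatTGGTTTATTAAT
Meis2: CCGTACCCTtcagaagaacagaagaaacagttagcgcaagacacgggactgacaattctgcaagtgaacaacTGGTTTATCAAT
Meis3: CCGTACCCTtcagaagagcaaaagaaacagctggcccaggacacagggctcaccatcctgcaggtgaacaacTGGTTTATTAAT
Pbx2: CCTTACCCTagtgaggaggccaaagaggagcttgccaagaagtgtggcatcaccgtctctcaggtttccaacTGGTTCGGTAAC
Pbx3: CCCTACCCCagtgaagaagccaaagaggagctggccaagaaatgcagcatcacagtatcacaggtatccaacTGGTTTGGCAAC
Pknox1: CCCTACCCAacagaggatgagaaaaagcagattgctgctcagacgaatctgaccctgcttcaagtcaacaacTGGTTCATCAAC
Pknox2: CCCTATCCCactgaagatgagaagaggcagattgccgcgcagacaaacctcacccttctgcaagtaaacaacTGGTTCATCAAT
Tgif1: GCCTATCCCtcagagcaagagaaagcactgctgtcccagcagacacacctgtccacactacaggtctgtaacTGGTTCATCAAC
Tgif2: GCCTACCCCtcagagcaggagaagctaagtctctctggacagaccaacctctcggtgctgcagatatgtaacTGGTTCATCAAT

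Each stretch held 84 bases in 28 codons and crossed 1 exon junction. In *Meis2* it lay in exons 9 and 10 of the 12 exons of the transcript Meis2-201, on the minus strand of chromosome 2 within 115868794 to 115921745. In *Pknox2* it lay in exons 9 and 10 of the 11 of Pknox2-207, on the minus strand of chromosome 9 within 36894489 to 36895384, and in *Pbx3* in exons 5 and 6 of the 9 of Pbx3-201, on the minus strand of chromosome 2 within 34178322 to 34204842. The first codon of the loop encodes proline in the 7 MEIS, PKNOX and PBX genes and alanine in *Tgif1* and *Tgif2*. Over the 84 bases *Meis2* was 83.3% identical to *Meis1* and 84.5% to *Meis3*, but 69.0% to *Pknox1* and *Pknox2* and 54.8% to *Pbx3*. Identity was 83.3% between *Pbx2* and *Pbx3*, 82.1% between the PKNOX genes and 71.4% between the TGIF genes. Runs of identical bases were searched on the same strand of annotated protein-coding transcripts, untranslated parts included. Other transcript types were not compared. The longest run between any pair of members was 32, between *Meis1* and *Meis2*, followed by 28 between *Meis2* and *Meis3*. How the counting treated reads that match both paralogs is not given in the sources used here.

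*Arntl* itself did not separate the genotypes by more than the fit could resolve. It had 6.05 and 6.29 FPKM in WT and 5.95 and 5.92 in KO (limma log2 fold change -0.06, standard error 0.10, Benjamini-Hochberg adjusted p = 0.750). A deletion this short need not lower the transcript, so these values do not check the genotype labels. All 13 ESC markers passed the FPKM minimum, and *Pou5f1*, a core pluripotency factor gene, had 1620 and 1460 FPKM in WT and 1590 and 1390 in KO. The ESC markers hold 14 features, since *Esrrb* has 2, of which 2 were higher and 3 lower at an adjusted p under 0.05 and 0 were called. They summed to 7560 and 7370 FPKM in WT and 7230 and 6800 in KO. The share of all tested features with an adjusted p under 0.05, whatever their fold difference, was not counted. Nothing is therefore read from counts at that threshold, in this list or in those below. Features without a gene symbol took 26.8% and 37.3% of the summed FPKM in WT and 19.0% and 18.1% in KO, a difference between libraries whose part in the values of the members was not tested.

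The family covered a wide range of levels. *Tgif1* was by far the most abundant member, with 97.8 and 93.0 FPKM in WT and 101 and 98.5 in KO, at the 94.4th percentile of the 17710 features with a symbol. It made up 65.0% and 65.3% of the summed FPKM of the 9 members in WT and 68.5% and 69.8% in KO. In WT the order from the highest level down was *Tgif1*, *Pbx2* (with *Ager*), *Tgif2*, *Pbx3*, *Pknox1*, *Meis2*, *Meis3*, *Meis1* and *Pknox2*. Neighbours in that order had separate values in the 2 libraries, except *Meis3* and *Meis1*, whose ranges overlapped. In KO *Meis2* dropped from 6th to 7th place, level with *Meis3* and *Pknox2* within the range of the libraries, and *Pknox1* stood above *Pbx3*.

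**Figure D1:**
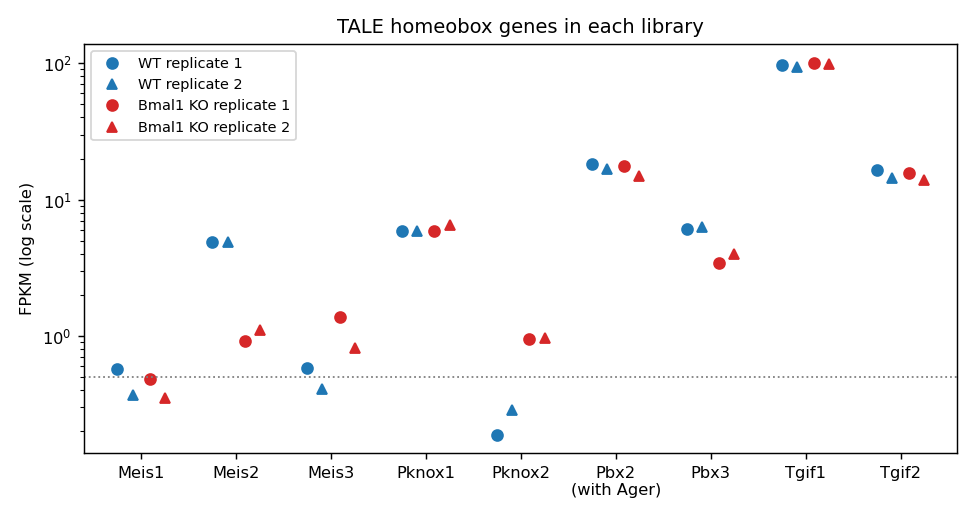
FPKM (log scale) of the 9 TALE homeobox genes in each of the 2 WT (blue) and 2 *Bmal1* KO (red) libraries, with circles for replicate 1 and triangles for replicate 2. The dotted line marks a FPKM of 0.5, the minimum mean for testing; *Meis2* lies near 4.9 in both WT libraries and near 1 in both KO libraries, whereas the *Tgif1* libraries differ little.

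*Meis2*, a MEIS factor of neural, heart and palate development, had the largest fold difference of the family. Its level was 4.87 FPKM in WT replicate 1 and 4.92 in WT replicate 2, against 0.928 in KO replicate 1 and 1.10 in KO replicate 2. Both KO libraries lay far below both WT libraries, and the replicates of each genotype were close together, 0.02 apart in WT and 0.23 apart in KO as log2(FPKM + 0.1). The mean was 4.89 ± 0.0384 in WT and 1.02 ± 0.125 in KO (SD, n = 2), 4.82-fold lower in KO, and the log2 fold change of FPKM + 0.1 was -2.17 (standard error 0.16). Of 12990 features tested, 50 had a lower log2 fold change. Because whole cultures were sequenced, fewer cells with *Meis2* RNA and less *Meis2* RNA per cell cannot be told apart. The feature of *Meis2* (ENSMUSG00000027210.20, minus strand, 115861264 to 116067431 on chromosome 2 of GRCm38) reaches past the annotated gene at both ends, by 1592 bases at the upstream end. It overlaps 2 annotated long non-coding RNA genes, *2700033N17Rik* on the same strand and *G630016G05Rik* on the opposite strand, by 1214 and 207 bases. No strand setting of the counting is given in the sources used here.

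The other MEIS genes were far lower than *Meis2* in WT and were not called in KO. *Meis1*, a cofactor of HOX proteins in blood stem cells, had 0.573 and 0.369 FPKM in WT and 0.484 and 0.353 in KO. These ranges overlap, and with a mean of 0.445 FPKM it stayed under the minimum of 0.5 and was the 1 member left untested. *Meis3*, a MEIS gene of hindbrain patterning, had 0.581 and 0.408 FPKM in WT and 1.38 and 0.822 in KO. Both KO values were above both WT values, but the KO replicates lay 0.68 apart on the log2 scale, and the log2 fold change was 0.99 (standard error 0.33), without a call. With a WT mean of 0.495 FPKM, *Meis3* reached the minimum of 0.5 only through its KO values. *Meis2* made up 80.8% and 86.4% of the summed FPKM of the 3 MEIS genes in WT, and 33.2% and 48.4% in KO. The ratio of *Meis2* to *Meis3* was 8.37 and 12.1 in WT and 0.671 and 1.34 in KO. The ratio of *Meis2* to *Meis1* was 8.49 and 13.3 in WT and 1.92 and 3.13 in KO.

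The PKNOX genes, whose products bind PBX proteins as MEIS proteins do, differed from each other. *Pknox1*, a broadly expressed gene needed for early embryonic survival, had 5.87 and 5.90 FPKM in WT and 5.87 and 6.52 in KO. Its groups overlapped, with a log2 fold change of 0.07 (standard error 0.11). *Pknox2* had 0.189 and 0.287 FPKM in WT and 0.949 and 0.963 in KO. Both KO libraries exceeded both WT libraries, and the log2 fold change was 1.66 (standard error 0.31), with means of 0.238 ± 0.0692 and 0.956 ± 0.00954 FPKM (SD, n = 2). *Pknox2* reached the minimum mean of 0.5 only through its KO values, so that a tested *Pknox2* had to differ. Without either KO library its mean fell under the minimum, and with a pseudocount of 1 its log2 fold change was 0.66, below 2-fold. The feature of *Pknox2* overlaps other annotated genes, by the most with the antisense gene *Gm3896* on the opposite strand, 4914 bases.

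Summed over the 5 MEIS and PKNOX genes, the level was 12.1 and 11.9 FPKM in WT, against 9.62 and 9.76 in KO. *Meis2* contributed 40.3% and 41.4% of that sum in WT and 9.65% and 11.3% in KO. *Pknox1* contributed 48.6% and 49.6% in WT and 61.1% and 66.8% in KO, with overlapping levels of its own. The 4 genes other than *Meis2* summed to 7.22 and 6.96 FPKM in WT and 8.69 and 8.66 in KO. Their sum was thus higher in both KO libraries, by less than *Meis2* was lower.

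**Figure D2:**
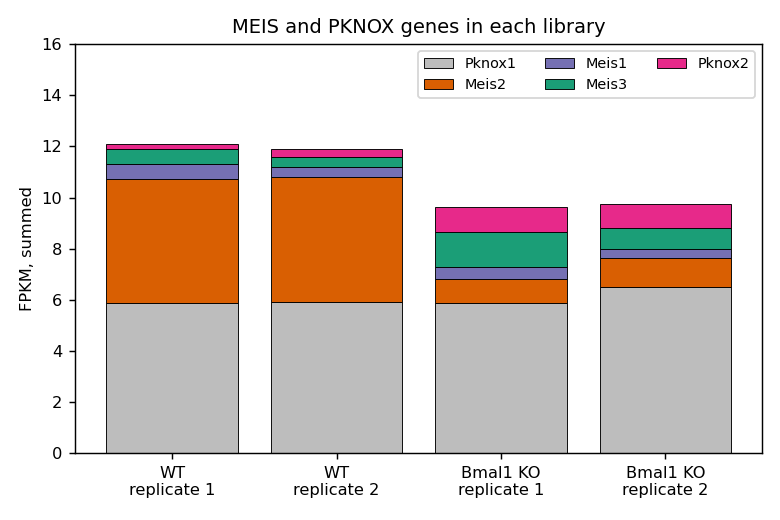
Summed FPKM of *Pknox1*, *Meis2*, *Meis1*, *Meis3* and *Pknox2* in each of the 4 libraries, stacked by gene. The orange *Meis2* segment shrinks from 4.87 and 4.92 FPKM in the WT libraries to 0.928 and 1.10 in the KO libraries, while the grey *Pknox1* segment stays between 5.87 and 6.52.

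Of the PBX partners, *Pbx3* was lower in KO and *Pbx2* overlapped between the genotypes. *Pbx3*, which encodes a PBX protein with a role in the control of breathing and hindlimb development, had 6.12 and 6.31 FPKM in WT and 3.42 and 3.98 in KO. Both KO libraries lay below both WT libraries, a 1.68-fold lower mean with a log2 fold change of -0.73 (standard error 0.13). This passed the adjusted p threshold of the fit across all features but not the 2-fold threshold, and with no filter on low values it missed the adjusted p threshold too. The ratio of *Meis2* to *Pbx3* was 0.796 and 0.780 in WT and 0.271 and 0.277 in KO, so *Meis2* was lower also relative to *Pbx3*. The feature of *Pbx3* overlaps the antisense gene *C79798* on the opposite strand by 16670 bases. The feature that merges *Pbx2* and *Ager* had 18.1 and 16.8 FPKM in WT and 17.7 and 15.0 in KO (log2 fold change -0.10, standard error 0.11). *Ager* encodes a receptor for advanced glycation end products on the same strand and overlaps the feature by 3075 bases, so the value is that of both genes together.

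Both TGIF repressor genes had nearly the same level in all libraries. The log2 fold change of *Tgif1* was 0.06 (standard error 0.07) and both KO values lay above both WT values, by a margin smaller than the spread within WT. *Tgif2* had 16.4 and 14.4 FPKM in WT and 15.6 and 13.9 in KO, with overlapping groups and a log2 fold change of -0.07 (standard error 0.11). The files give the antisense transcript *5430405H02Rik* the same coordinates as *Tgif2*, and its own values of 7.37 to 8.87 FPKM also overlapped between the genotypes.

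Of the 8 tested members, 1 (*Meis2*) was called lower and 1 (*Pknox2*) higher, where a call is an adjusted p under 0.05 in the limma fit over all tested features and a difference of more than 2-fold. Over all 12990 tested features 1.42% were called lower and 2.72% higher. In 5 of the 8 tested members the libraries of the genotypes did not overlap, beside 58.8% of all tested features. The family was picked with this contrast known, so nothing is read from these counts. The median log2 fold change of the 8 members was -0.0028, beside -0.02 over all tested features.

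**Figure D3:**
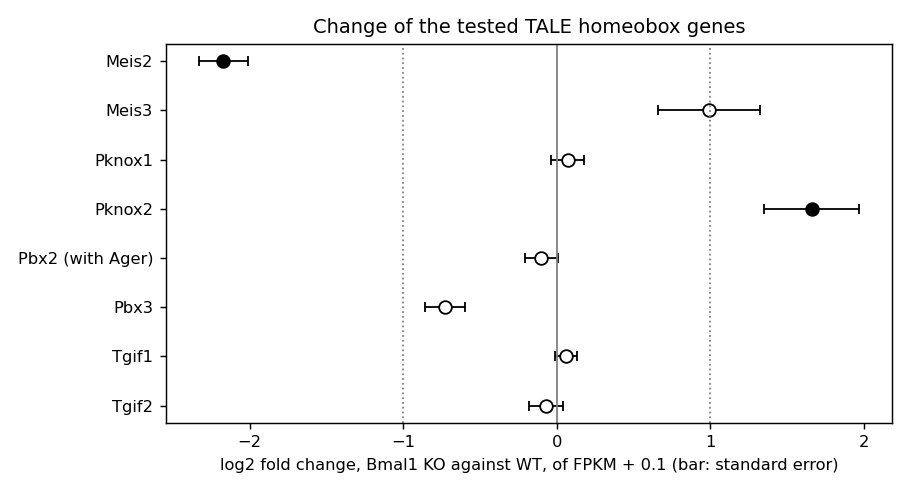
Log2 fold change of *Bmal1* KO against WT for the 8 tested TALE homeobox genes, with bars for the standard error and dotted lines at a 2-fold difference. Filled points mark the called genes, *Meis2* at -2.17 and *Pknox2* at 1.66; *Meis3* at 0.99 and *Pbx3* at -0.73 lie within the dotted lines, and the others lie near 0.

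The neighbours of *Meis2* on chromosome 2 were examined to see whether a longer stretch differed. Among the 10 tested features with a symbol on each side, from 112265606 to 118837489, none was called and the log2 fold changes ran from -0.57 to 0.61 with a median of 0.03. The nearest ones were *BC052040*, 82.5 kb away (log2 fold change 0.17, standard error 0.10), and *Spred1*, an inhibitor of RAS-ERK signalling, 1050 kb away (0.19, standard error 0.11).

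**Figure D4:**
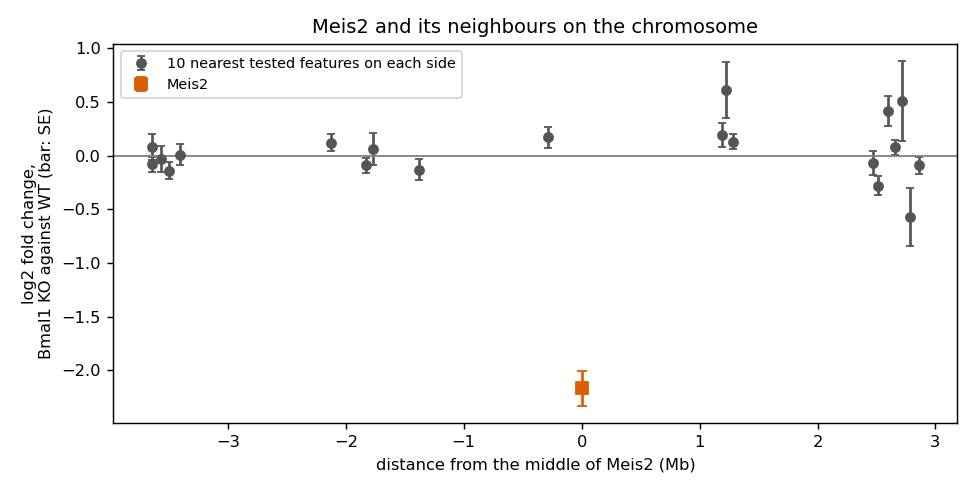
Log2 fold change of *Bmal1* KO against WT for *Meis2* (orange square) and the 10 nearest tested features with a symbol on each side (grey), by distance from the middle of *Meis2* in Mb; bars are standard errors. *Meis2* lies at -2.17, and its neighbours lie between -0.57 and 0.61.

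The 5 features whose values over the 4 libraries were most like those of *Meis2* were *Esrp1*, *Tgm3*, *Tmem30b*, *Sdr42e1* and *Ptk2b*. Likeness was the Euclidean distance between log2 values centred over the 4 libraries, among 11944 tested features with a symbol. *Esrp1*, an epithelial splicing regulator, was the nearest, at a distance of 0.0376, with 15.0 and 15.5 FPKM in WT and 2.97 and 3.59 in KO. *Tgm3*, a transglutaminase, followed at 0.172, with 6.67 and 7.21 FPKM in WT and 1.35 and 1.40 in KO. *Tmem30b*, a subunit of phospholipid flippases, was at 0.258, *Sdr42e1* at 0.360 and *Ptk2b*, a focal adhesion kinase relative, at 0.367. Their KO values are low because the choice by likeness to *Meis2* fixes it, and they are given as a description.

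The other TALE genes examined were *Pbx4*, the Iroquois genes *Irx1* to *Irx6*, and *Mkx*, a regulator of tendon development; *Tgif2lx1* and *Tgif2lx2* were also looked for and are not analysed here. Of the 8 genes found, 3 were tested and 0 passed an adjusted p of 0.05 in either direction. *Pbx4* had 3.21 and 2.34 FPKM in WT and 3.32 and 2.71 in KO (log2 fold change 0.13, standard error 0.20, adjusted p = 0.714 from limma). *Irx2* had 0.825 and 0.595 FPKM in WT and 1.19 and 1.93 in KO (adjusted p = 0.0888 from limma), and *Mkx* had 0.453 and 0.570 in WT and 0.986 and 1.43 in KO (adjusted p = 0.0628 from limma). *Irx3* and *Irx5*, adjacent members of an Iroquois cluster, stayed under the FPKM minimum in all libraries. *Irx5* had 0.0189 and 0.0196 FPKM in WT and 0.372 and 0.292 in KO, and *Irx3* had 0.181 and 0.121 in WT and 0.429 and 0.423 in KO. In both, each KO value lay above each WT value.

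**Figure D5:**
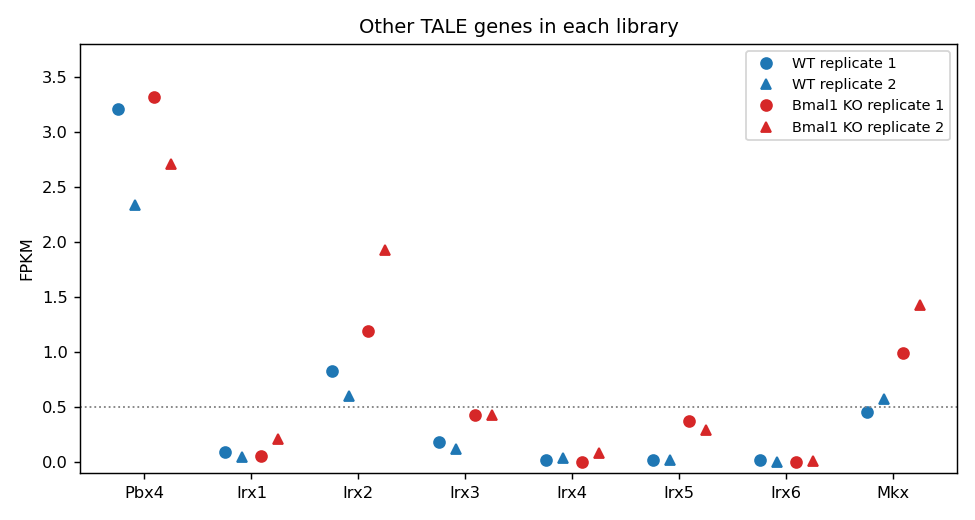
FPKM of 8 other TALE genes in each library (blue WT, red *Bmal1* KO, circles replicate 1, triangles replicate 2), with a dotted line at the testing minimum of 0.5. *Irx2*, *Irx3*, *Irx5* and *Mkx* have both KO values above both WT values, and none of the 3 tested genes (*Pbx4*, *Irx2*, *Mkx*) passed the test.

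HOX proteins join MEIS-PBX dimers on DNA, and most of their genes had little RNA in these cells. Of 38 *Hox* genes examined, 31 were found, 24 of them had a mean under 0.1 FPKM, and 3 were tested, with 0 passing an adjusted p of 0.05 in either direction. Among the 28 untested genes, 5 had both KO values above both WT values, 3 had both below and 20 overlapped. No such shares were counted over all untested features. The highest was *Hoxb9*, with 2.51 and 2.28 FPKM in WT and 1.65 and 1.85 in KO (log2 fold change -0.43, standard error 0.16, adjusted p = 0.140 from limma). *Hoxd13* lay between 0.654 and 0.714 FPKM in all libraries, and *Hoxc13* had 0.395 and 0.594 in WT and 0.653 and 0.962 in KO (adjusted p = 0.989 and 0.276 from limma).

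Retinoic acid is a known inducer of *Meis* genes. Of the 19 genes listed, 9 were tested, 0 were called and 1 was higher at an adjusted p under 0.05, with a median log2 fold change of -0.05. That gene was *Crabp1*, which encodes a cellular retinoic acid-binding protein, with 6.41 and 5.13 FPKM in WT and 8.74 and 9.94 in KO (log2 fold change 0.69, standard error 0.14, adjusted p = 0.0342 from limma). The main receptor gene *Rarg* had 110 and 91.5 FPKM in WT and 93.1 and 79.1 in KO, with overlapping groups (adjusted p = 0.284 from limma). The receptor genes *Rxrb*, at 24.1 to 31.8 FPKM, and *Rara*, at 19.5 to 24.7, also overlapped between the genotypes. Of the 10 untested genes, 3 had both KO values above both WT values, 1 had both below and 6 overlapped. The same shares over all untested features were not counted. *Aldh1a2*, which encodes a retinoic acid-synthesising enzyme, had 0.272 and 0.204 FPKM in WT and 0.660 and 0.671 in KO. *Cyp26a1*, which encodes a retinoic acid-degrading enzyme, was at 0.0857 FPKM or listed at 0 in WT and listed at 0 or at 0.154 in KO.

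SMAD and corepressor genes, through which TGIF proteins act, were listed together with Nodal pathway genes, among them ligand, antagonist and receptor genes. Every gene of the list passed the FPKM minimum. All 18 were tested, 0 were called, 1 was higher and 2 were lower at an adjusted p under 0.05, and the median log2 fold change was -0.02. *Smad7*, an inhibitory SMAD, had 31.2 and 26.9 FPKM in WT and 20.6 and 19.4 in KO (log2 fold change -0.53, standard error 0.10, adjusted p = 0.0269 from limma). The Nodal antagonist genes moved in opposite directions. *Lefty1* had 18.9 and 15.9 FPKM in WT and 34.3 and 24.5 in KO (log2 fold change 0.74, adjusted p = 0.0486 from limma), and *Lefty2* had 31.8 and 31.1 in WT and 24.1 and 18.9 in KO (log2 fold change -0.56, adjusted p = 0.0430 from limma). Of the corepressor genes, *Hdac1* had 215 and 219 FPKM in WT and 205 and 197 in KO (log2 fold change -0.11, adjusted p = 0.339 from limma). *Ctbp2* had 107 and 112 in WT and 105 and 107 in KO, and *Hdac2* had 93.2 and 103 in WT and 108 and 121 in KO (adjusted p = 0.683 and 0.177 from limma).

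Markers of differentiated cells are given beside these results because *Meis* genes are expressed in several early lineages. Of the 12 neural progenitor markers 10 were found, 6 were tested and 3 were called higher in KO, beside 2.72% of all tested features. *Neurod1*, 1 of these 3, had a WT mean of 0.47 FPKM and reached the minimum of 0.5 only through its KO values, as *Pknox2* did. *Sox1* had 1.32 and 1.38 FPKM in WT and 6.91 and 7.61 in KO, *Pax6* had 0.466 and 0.859 in WT and 2.28 and 2.36 in KO, and *Neurod1* had 0.423 and 0.517 in WT and 2.02 and 2.72 in KO (adjusted p = 0.00169, 0.0198 and 0.00746 from limma). *Tubb3*, a neuronal tubulin gene, went the other way, with 130 and 124 FPKM in WT and 82.5 and 74.0 in KO (log2 fold change -0.70, adjusted p = 0.00827 from limma), and dominated the summed level of the list, 135 and 128 in WT and 97.7 and 89.9 in KO. *Neurog1*, *Neurog2*, *Olig2* and *Zic1* stayed under 0.1 FPKM in every library. Of the 10 mesoderm and streak markers only *Eomes* was tested, with 2.21 and 2.25 FPKM in WT and 0.463 and 0.775 in KO, and it was called lower (log2 fold change -1.73, adjusted p = 0.0154 from limma). The list summed to 3.65 and 3.19 FPKM in WT and 2.17 and 2.69 in KO, whereas the 9 untested markers without *Eomes* summed to 1.44 and 0.943 in WT and 1.71 and 1.92 in KO. Of these 9, 3 had both KO values above both WT values and 6 overlapped. The 3 were *Kdr*, *T* and *Mesp1*, a gene of early mesoderm, with 0.099 and 0.151 in WT and 0.465 and 0.396 in KO. For *T* the higher WT value was 0.0227 FPKM and the lower KO value 0.0233. *Tbx6*, with 0.578 and 0.295 in WT and 0.513 and 0.545 in KO, overlapped. So did *Mixl1*, with 0.198 and 0.16 in WT and 0.152 and 0.299 in KO. The 10 primitive endoderm markers summed to 11.7 to 12.9 FPKM in all libraries, with 3 tested and 0 passing an adjusted p of 0.05, and most of that sum was *Lama1* and *Col4a1*, which encode basement membrane proteins. *Gata4*, the other tested marker, had 0.6 and 0.561 FPKM in WT and 0.528 and 0.445 in KO, with both KO values below both WT values. The 7 untested markers summed to 0.629 and 0.732 FPKM in WT and 1.53 and 1.51 in KO. Of these 7, 5 had both KO values above both WT values (*Sox7*, *Dab2*, *Foxa2*, *Cubn* and *Pdgfra*) and 2 overlapped (*Gata6* and *Sox17*). *Foxa2*, *Cubn*, *Pdgfra* and *Sox17* had means under 0.1 FPKM. *Gata6* had 0.102 and 0.168 FPKM in WT and 0.166 and 0.0904 in KO. How often groups separate over all untested features was not counted, so nothing is read from the counts of the mesoderm and endoderm lists. *Sox7*, an endoderm transcription factor gene, had 0.260 and 0.247 in WT and 0.709 and 0.627 in KO. The fibroblast markers found were 5 of 10 and summed to 1.93 and 1.67 FPKM in WT and 2.93 and 2.26 in KO, nearly all of it *Thy1*, while *Col1a1* and *Col1a2*, the defining collagen genes, did not exceed 0.217. None of the 19645 features was at 0 in all 4 libraries. That each marker found was above 0 in some library therefore follows from its being found, and nothing is read from it. Whether these differences in lineage genes bear on *Meis2*, *Pbx3* or *Pknox2* was not tested.

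The promoter windows of the family in RefSeq (GRCm38.p6, from 250 bases before to 50 after a transcript start) were searched on both strands for CACGTG, the palindromic E-box bound by BMAL1, and for TGACAG, a MEIS and PKNOX motif that contains the TGIF core. There were 10 windows for 6 members, *Meis1*, *Meis2*, *Meis3*, *Pbx2*, *Tgif1* and *Tgif2*. *Tgif1* had the most windows, at different transcript starts, and so more chances to hold a motif than the other members. The E-box was in 0 of the 10 windows, beside 7.15% of 32851 windows over all genes. TGACAG was in 2 windows, both of *Tgif1*, beside 19.2% of all windows.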

How the data were processed

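RNA-seq of 2 WT and 2 *Bmal1* KO ESC libraries was analysed from the deposited FPKM. Per the submitters' processing notes, which give no order, the authors used TopHat2 2.1.1, Bowtie2 2.3.0, Cufflinks 2.2.1 and GRCm38. The deposited values are FPKM per gene feature, one file a library, and the depth behind them is unknown. File starts count from 0, so 1 was added. Groups follow the sample titles. The study calls the libraries biological duplicates, and the labels name no separate cultures, so p-values measure the spread between these libraries.

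FPKM were compared as log2(FPKM + 0.1), which understates changes of low genes, for the 12990 of 19645 features with a mean of at least 0.5, in limma 3.58.1 under R 4.3.3 with a variance trend and Benjamini-Hochberg adjustment over all tested features. A call needs an adjusted p under 0.05 and a difference of more than 2-fold. Merged symbols were split at commas. The limma code was checked on simulated data before use. Tables and figures used Python 3.11.15, pandas 2.3.3 and matplotlib 3.10.9.

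The members and the 9 gene lists were chosen with earlier results of these data known. Some list genes are not reported here and are left out of the lists' counts and sums. Named genes are all members, every called list gene, up to 3 more per list by mean FPKM, *Arntl*, the 5 features nearest to *Meis2* in pattern and the nearest tested neighbour on each side of it. Genes named beyond this rule (*Crabp1*, *Smad7*, *Lefty1*, *Lefty2*, *Irx3*, *Irx5*, *Cyp26a1*, *Aldh1a2*, *5430405H02Rik*, *Sox7*, *Dab2*, *Foxa2*, *Cubn*, *Pdgfra*, *Gata6*, *Sox17*, *T*, *Kdr* and the neural markers near 0) were chosen after their values were seen. Alternatives were 9 settings with all libraries, plus leaving out each of the 4 libraries. Sequences came from GENCODE M21 and RefSeq.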

Additional observations from a re-analysis of the deposited data

How the results depend on the processing

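*Meis2* was called lower under all 9 alternatives with 4 libraries and without each library in turn. Its log2 fold change was -1.55 with a pseudocount of 1 and ran from -2.28 to -2.05 without 1 library. With a pseudocount of 1, 146 features were higher and 85 lower in KO and 0 members were called higher. With a mean FPKM of at least 1, 0 members were called higher, since *Pknox2* was not tested. With no filter, 5 list genes were called higher instead of 3. Without 1 library, features higher in KO numbered 305 to 497 and features lower 257 to 323, members called higher 0 to 2, and list genes called higher 3 to 5. Without KO replicate 1 and without KO replicate 2, *Pknox2* lay under the FPKM minimum. Without WT replicate 1 the log2 fold change of *Meis3* was 1.20. Its remaining WT value, 0.408 FPKM, was under the minimum, which it reached only through its KO values. With 1 library left in a group, that library is assumed to vary like those of the other group. *Pbx3* kept its direction under all alternatives, from -0.84 to -0.62, and was not called under any; it passed the adjusted p threshold under all of them except with no filter on low values. *Pbx2* ranged from -0.21 to 0.02 and *Tgif2* from -0.16 to 0.03, so neither kept 1 direction. With the replicate number as a block, 392 features were higher and 240 lower, *Meis2* was at -2.17 and 1 member was called in each direction. The difference between replicates 1 and 2 in WT had almost no linear correlation with that in KO (Pearson's r 0.071). By rank the correlation was higher (Spearman's rho 0.387). Both were taken over 12990 features, which are not independent replicates, and no source pairs the numbers. FPKM without counts leave the precision of *Meis1*, *Meis3*, *Pknox2* and the Iroquois genes, all near or under 1 FPKM, unknown. The same holds for the KO values of *Meis2*, 0.928 and 1.10 FPKM, and so for the size of its difference.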
